A study of Mus musculus with 30 samples.

Results

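Interferon-stimulated genes and genes of class I antigen presentation were followed in 3T3-L1, a line of mouse fibroblasts that can be made to form fat cells in culture. The 35 genes were taken by name from the deposited table, which holds 62266 gene rows, and cover the transcription factors, nucleic acid sensors, antiviral effectors, ISG15 and ADP-ribose enzymes, and the peptide transporter, light chain and heavy chains of class I molecules. All 35 were in the table, and 28 of them reached 1 FPKM (a fragment count scaled to the length of the transcript and the size of the library) in at least 5 of the 30 libraries and were tested, as were 18035 gene rows in all. Of these rows 12744 were named genes, as all members are, and the others were unnamed assembled loci. Shares of all rows given below cover both kinds.

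The cells in 15 of the 30 cultures had received quizalofop-p-ethyl (QpE), a herbicide, at 50 µM, and the other 15 were controls. Each was sampled at 6 h, 24 h or 12 days, with 5 cultures per group. The groups, each of 5 cultures, were QpE at 6 h, control at 6 h, QpE at 24 h, control at 24 h, QpE at 12 days and control at 12 days. Cells of every group had been put into medium with fetal bovine serum, the phosphodiesterase inhibitor 3-isobutyl-1-methylxanthine at 500 µM and insulin at 100 nM before the start of exposure, so the controls were differentiating too. No interferon is named in the protocols. The cultures come from a single line, so the p-values measure the spread between its cultures, which carry the numbers 1 to 5 in each group, and the last time is given as the labels have it, although the medium changes in the protocol add up to fewer days.

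Type I interferons bind receptors at the cell surface and act through the kinases JAK1 and TYK2 on transcription factors that enter the nucleus, among them STAT2 in a complex with IRF9. There this complex binds the interferon-stimulated response element (ISRE) near the start of many interferon-stimulated genes. Many of these genes also have a tonic level without added interferon, and IRF1, IRF7 and IRF9 and the RNA sensors are themselves products of the pathway. In fibroblasts and fat cells the pathway serves cell-intrinsic antiviral defence, and class I molecules show peptides to T cells on almost every cell type.

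The promoters of the set were searched for the letters of the ISRE. RefSeq windows (GRCm38.p6, the build of the deposited coordinates) of 300 bases, with 250 before and 50 after the start of the gene, were found for 26 of the 35 genes, in 30 windows. The ISRE letters GAAANNGAAA, read on both strands, were present in 11 of the 30 windows, or 36.7%, against 1131 of all 32851 windows, or 3.44%. The windows with a match belong to B2m, Bst2, Ddx58, Ifih1, Ifit1, Ifit3, Ifitm3, Isg15, Oas1a, Rsad2 and Stat2. The letters of the gamma-activated sequence, TTCNNNGAA, read on both strands, were present in 6 of the 30 windows, or 20%, against 2726 windows of all, or 8.3%. A match is a description of the letters and not a measured binding site, and a window without it may hold other forms of the element.

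The 5 windows below include that of Ifitm3, the gene called lower with QpE at 12 days. Those of Bst2, Isg15, Ifit1 and H2-K1 were added for their levels at 12 days. Replicates 3 and 4 of both groups held the 2 highest values of Bst2, Isg15 and Ifit1, and the 2 lowest of H2-K1. Capitals mark the ISRE letters, and each window is written 5′ to 3′ on the strand of the gene. Ifitm3 holds matches at positions 253 and 270, Bst2 at 121 and 127, Isg15 at 173, 179 and 185, and Ifit1 at 147 and 166, and in Bst2 and Isg15 neighbouring matches overlap. The letters of the gamma-activated sequence begin at position 264 in Ifitm3, where they overlap the ISRE match at 270. In Bst2 they begin at 115 and overlap the ISRE match at 121. The window of H2-K1 holds neither motif in these exact letters, and other forms were not searched. These 5 windows do not stand for the set. B2m, Ddx58 and Stat2 have an ISRE match, but replicates 3 and 4 did not hold their highest values in both groups at 12 days. For Ifit2 these replicates did, and its window has no ISRE match.
Ifitm3, chr7:141010695-141010994, minus strand: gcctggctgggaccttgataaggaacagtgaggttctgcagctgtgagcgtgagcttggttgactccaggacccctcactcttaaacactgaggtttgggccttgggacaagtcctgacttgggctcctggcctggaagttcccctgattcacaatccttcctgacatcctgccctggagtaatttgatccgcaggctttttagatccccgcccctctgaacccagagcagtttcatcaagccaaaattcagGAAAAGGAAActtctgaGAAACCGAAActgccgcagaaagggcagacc
Bst2, chr8:71537423-71537722, minus strand: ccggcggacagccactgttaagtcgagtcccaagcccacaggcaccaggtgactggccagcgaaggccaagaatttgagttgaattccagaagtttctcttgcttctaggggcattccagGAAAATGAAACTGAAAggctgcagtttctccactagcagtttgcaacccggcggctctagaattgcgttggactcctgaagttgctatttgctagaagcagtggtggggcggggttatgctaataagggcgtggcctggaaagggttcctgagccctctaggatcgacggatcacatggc
Isg15, chr4:156200769-156201068, minus strand: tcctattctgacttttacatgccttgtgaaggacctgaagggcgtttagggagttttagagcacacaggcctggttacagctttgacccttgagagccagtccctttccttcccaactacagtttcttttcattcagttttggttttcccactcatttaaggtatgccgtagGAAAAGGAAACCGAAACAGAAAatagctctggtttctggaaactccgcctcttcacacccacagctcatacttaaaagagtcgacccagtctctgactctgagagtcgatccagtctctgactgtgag
Ifit1, chr19:34640639-34640938, plus strand: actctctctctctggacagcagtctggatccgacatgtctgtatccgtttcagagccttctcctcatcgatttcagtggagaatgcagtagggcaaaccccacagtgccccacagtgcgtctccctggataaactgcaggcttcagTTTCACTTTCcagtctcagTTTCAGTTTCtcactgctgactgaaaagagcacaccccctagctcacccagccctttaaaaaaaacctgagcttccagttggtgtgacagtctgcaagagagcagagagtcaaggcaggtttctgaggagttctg
H2-K1, chr17:34000298-34000597, minus strand: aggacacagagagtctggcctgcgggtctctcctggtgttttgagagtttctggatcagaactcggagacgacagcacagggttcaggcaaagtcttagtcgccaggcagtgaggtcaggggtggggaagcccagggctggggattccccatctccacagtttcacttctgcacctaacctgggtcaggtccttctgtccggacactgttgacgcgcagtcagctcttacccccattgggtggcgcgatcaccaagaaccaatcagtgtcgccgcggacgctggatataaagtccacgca

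The estimated depth was 9.5 to 17.4 mega-fragments per library (1 mega-fragment is 1e+06 fragments). Fat cell markers rose with time in the control cultures (11 of 12 tested were higher at 12 days than at 24 h). The labels call the cells of every group differentiated, but the summed level of the fat cell list was 3614 to 10298 FPKM with QpE and 1345 to 6641 FPKM in controls at 12 days, against 205 to 589 FPKM with QpE and 267 to 536 FPKM in controls at 6 h. Defining markers of leukocytes were at or near 0: Ptprc reached 0.031 FPKM, Adgre1 0.024 and Itgam 0.024 in the highest library, and Cd3e was listed at 0 in every library. The summed level of the leukocyte and macrophage list was 4.00 to 6.96 FPKM with QpE at 12 days and 3.03 to 6.61 FPKM in controls at 12 days, and it came mostly from Cd68 and Cd14, which are not particular to leukocytes. Libraries of QpE at 12 days had the widest spread, with a median SD over genes of 0.352 on the log2 scale, against 0.225 to 0.29 in the other groups.

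The members covered a wide range of levels, and a few of them carried most of the signal. B2m, the light chain of class I molecules, averaged 412 FPKM over the 30 libraries and made up 38.72% of the summed level of the 35 genes. Ifitm3, a membrane protein that blocks the fusion of viruses in endosomes, averaged 295 FPKM and made up 27.72%, and H2-D1 and H2-K1, the class I heavy chains, averaged 129 and 68.4 FPKM. At the other end, Oas2, Oasl1, Rsad2 and Oas1a averaged 0.094 FPKM or less. With Ifih1, Zbp1 and Mx2 these are the 7 members that did not pass the filter. Members just above it, such as Dhx58, Irf7, Mx1 and Rtp4, passed through their higher groups, so counts and medians over the tested members, and calls of these genes between times, are descriptions.

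No interferon gene reached 1 FPKM. Of 11 interferon genes in the table, 4 were at 0 in every library, and the highest value in any library was 0.223 FPKM, for Ifne. The receptor chains for type I interferon were present, with Ifnar1 averaging 30.8 FPKM and Ifnar2 41.6 FPKM over all libraries. The receptor chains for interferon gamma were present too, Ifngr1 at 31.7 FPKM and Ifngr2 at 14.5 FPKM. Jak1 averaged 58.4 FPKM and Tyk2 1.54 FPKM.

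**Figure D1:**
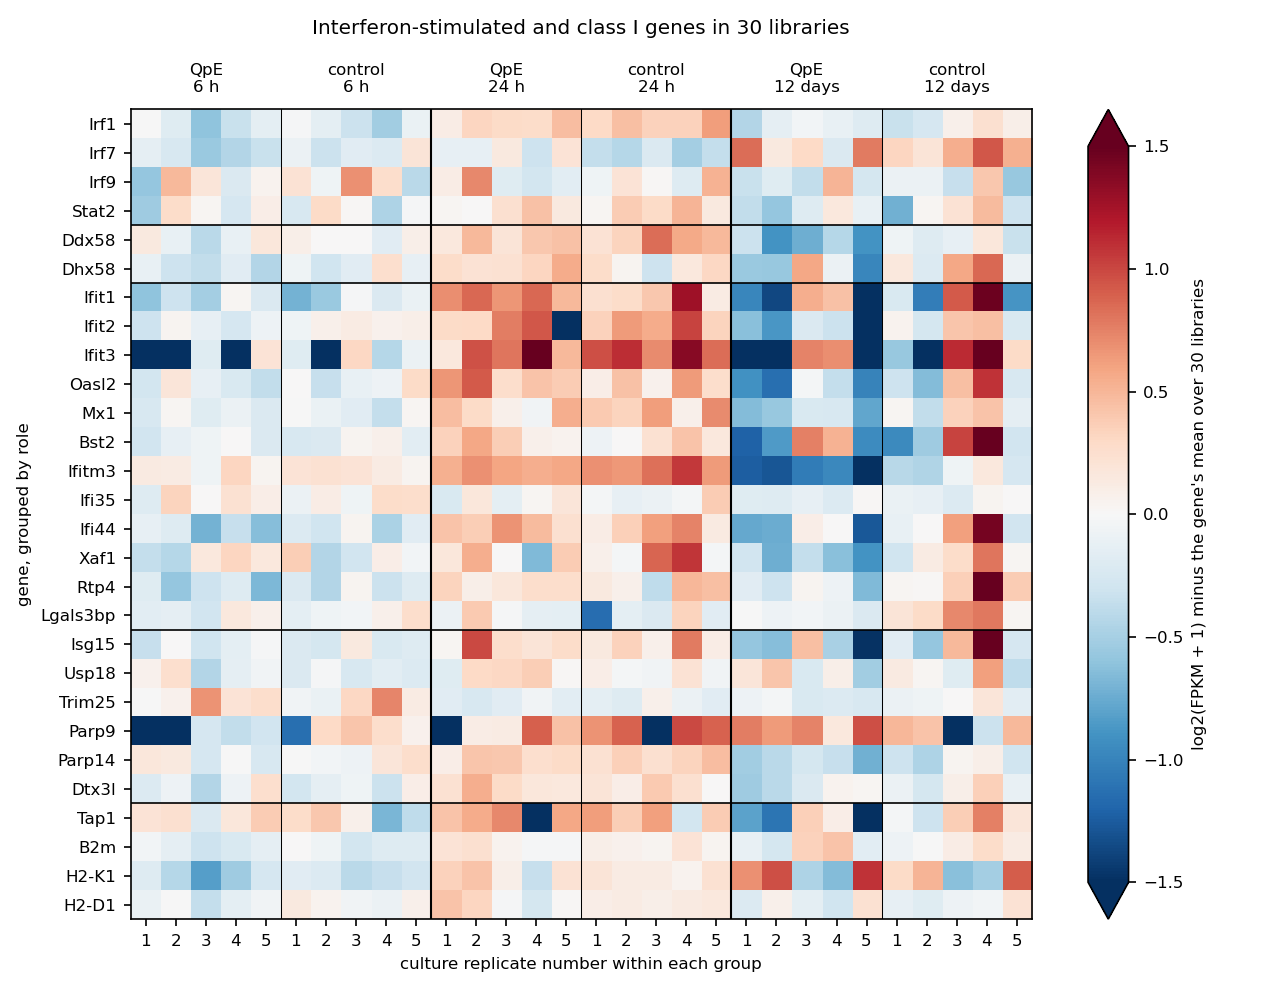
The 28 tested genes (rows, grouped by role) in the 30 libraries (columns, replicate numbers 1 to 5 in each group), as log2(FPKM + 1) minus the mean of the gene over all libraries. Most rows are higher in the 24 h groups than in the 6 h groups, and at 12 days the row of Ifitm3 is lowest with QpE while the rows of Ifit1, Bst2, Ifi44 and Isg15 are highest in control replicate 4.

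At 12 days, QpE cultures had less Ifitm3 mRNA than controls, and no other member passed the test. Of the 28 tested members 0 were called higher and 1 was called lower (limma, Benjamini-Hochberg adjustment over all 18035 rows, threshold 0.05, two-sided). Among all rows tested, 2.13% were called higher and 2.73% lower, so 1 of 28, or 3.57%, is near the background and is not a result about the set. At an unadjusted p under 0.05, 0 members were higher and 8 were lower, where 3852 of all 18035 rows passed in either direction. The difference was below 0 for 25 of the 28, and its median was -0.49 on the log2(FPKM + 1) scale, against -0.01 over all rows tested. Fibroblast and preadipocyte markers were lower with QpE in the same libraries, 4 of 10 past the test, with summed levels of 318 to 2382 FPKM with QpE and 3049 to 4243 FPKM in controls. Of the fat cell markers 0 of 12 passed the test, and 12 of 12 differences were above 0, with a median of 0.91. The part of both lists in the result was not tested, and fewer cells of a type and less RNA per cell cannot be told apart in bulk RNA.

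Ifitm3 (minus strand, chr7:141009586-141010770) was at 112, 108, 127, 134 and 42.9 FPKM in the 5 QpE cultures at 12 days, against 197, 193, 253, 294 and 221 FPKM in controls. The groups did not overlap, and QpE replicate 5 was far below the other QpE cultures. The mean was 105 ± 36.2 FPKM with QpE and 232 ± 42.3 FPKM in controls (SD, n = 5 each), a log2 difference of -1.22 (SE 0.29, 95% interval -1.87 to -0.57, adjusted p = 0.0451) from limma. Without QpE replicate 5 the difference was -0.93 with an adjusted p of 0.0101, and in the other 9 fits that leave out a culture the adjusted p was 0.0506 to 0.0997. The call was also lost in the fits with a replicate block (adjusted p = 0.0528), with a pseudocount of 0.1 (adjusted p = 0.05035), with the most abundant transcript alone (adjusted p = 0.0631) and with no filter (adjusted p = 0.0858), while the difference stayed between -1.34 and -0.93 in every fit made.

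**Figure D2:**
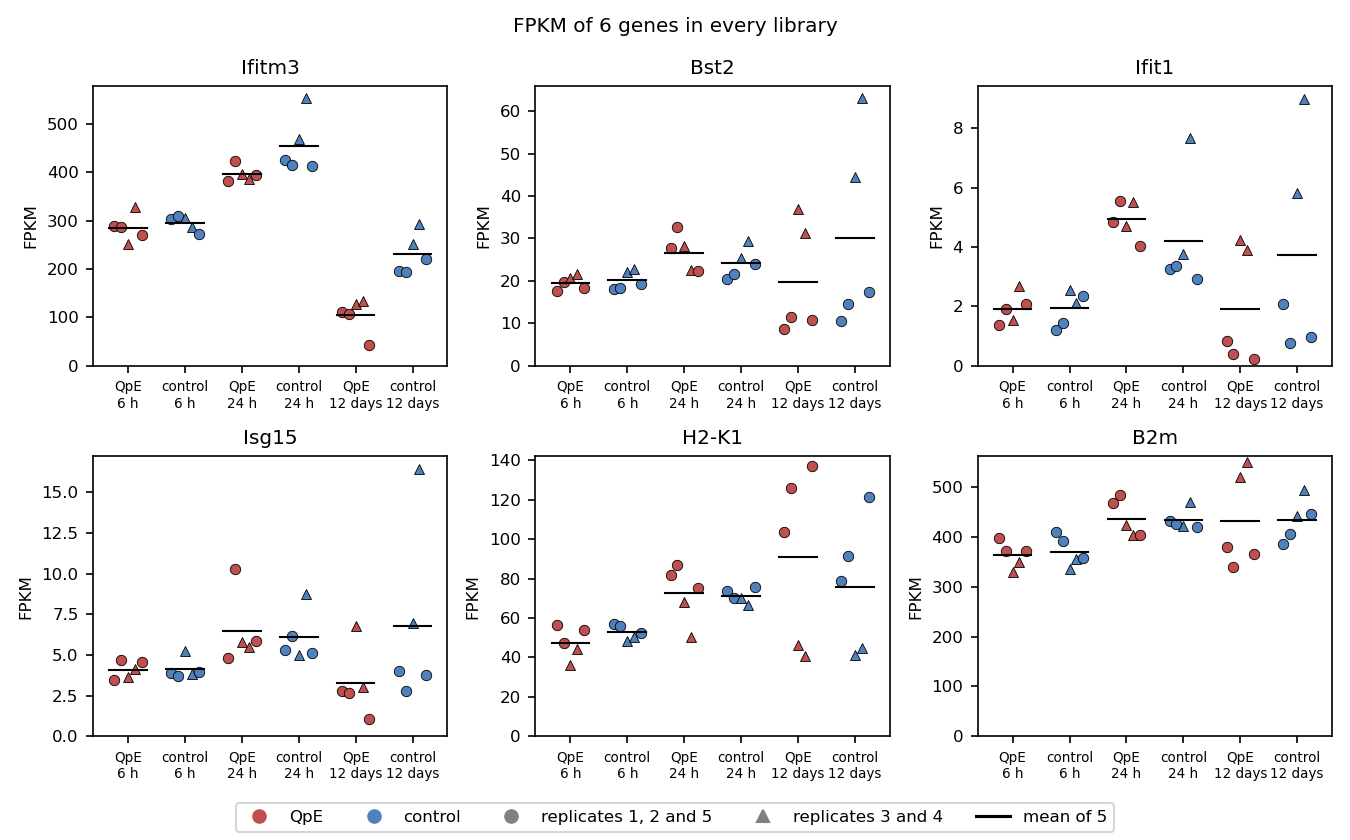
FPKM (vertical axes) of 6 genes in every library, by treatment and time, with triangles for replicates 3 and 4, circles for replicates 1, 2 and 5, and a line for the mean of 5. At 12 days the Ifitm3 values with QpE lie below all control values, while replicates 3 and 4 stand above the other cultures for Bst2 and Ifit1, and below them for H2-K1, in both groups.

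Antiviral effectors other than Ifitm3 did not pass the test with QpE at 12 days. Over the 12 tested effectors, Ifitm3 included, the median difference was -0.73. Bst2, or tetherin, which holds budding viruses at the cell surface, was at 8.70, 11.5, 37.0, 31.3 and 10.8 FPKM with QpE and at 10.6, 14.6, 44.6, 63.2 and 17.5 FPKM in controls, a log2 difference of -0.50 (SE 0.56, adjusted p = 0.665). The groups overlapped, with replicates 3 and 4 highest in both. At each number the QpE value of Bst2 was below the control value, and the fit does not pair cultures by number. Lgals3bp, a secreted glycoprotein that binds galectins, was at 38.8, 36.7, 37.7, 36.5 and 33.3 FPKM with QpE and 44.4, 47.7, 64.5, 67.7 and 39.8 FPKM in controls, and here the groups did not overlap. Its difference was -0.49 (SE 0.15, 95% interval -0.82 to -0.16, adjusted p = 0.087), so it missed the test.

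The IFIT proteins bind viral RNA ends or other IFIT proteins, and their transcripts were low. Ifit1 was at 0.831, 0.404, 4.26, 3.90 and 0.244 FPKM with QpE and 2.08, 0.753, 5.82, 8.99 and 0.961 FPKM in controls at 12 days, a log2 difference of -0.63 (SE 0.61, adjusted p = 0.604). In each group, replicates 3 and 4 were well above the rest. Ifit2 was at 1.24, 0.893, 1.99, 1.76 and 0.233 FPKM with QpE and 2.58, 1.89, 3.63, 3.73 and 1.96 FPKM in controls, a difference of -0.79 (SE 0.27, adjusted p = 0.116). Ifit3 was listed at 0 in QpE replicates 1, 2 and 5 and in control replicate 2, with the other values at 3.87 to 4.06 FPKM with QpE and 1.04 to 10.3 FPKM in controls, a difference of -0.90 (SE 0.76, adjusted p = 0.544). The intervals from this fit, which does not pair cultures by number, were wide, -1.98 to 0.73 for Ifit1 and -2.58 to 0.79 for Ifit3.

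Oasl2, which belongs to the oligoadenylate synthetase-like proteins, Xaf1, a proapoptotic protein, Ifi44, an interferon-induced cytoplasmic protein, and Rtp4, a receptor transporter that responds to interferon, had differences below 0 too. Xaf1 was at 0.517, 0.118, 0.450, 0.205 and 0 FPKM with QpE and 0.507, 1.02, 1.25, 2.25 and 0.903 FPKM in controls, a difference of -0.77 (SE 0.21, adjusted p = 0.0667). Ifi44 was at 0.578, 0.601, 1.88, 1.68 and 0.112 FPKM with QpE and 1.48, 1.68, 3.09, 6.24 and 1.19 FPKM in controls, a difference of -0.86 (SE 0.38, adjusted p = 0.224). The groups overlapped for both genes, and for Ifi44 replicates 3 and 4 were highest in each. Oasl2 differed by -0.75 (SE 0.35, adjusted p = 0.25), Rtp4 by -0.70 (SE 0.29, adjusted p = 0.198) and Mx1, a dynamin-like GTPase, by -0.56 (SE 0.19, adjusted p = 0.118). Ifi35, whose product binds the STAT-interacting protein NMI, differed by -0.06 (SE 0.09, adjusted p = 0.765), with a narrow interval of -0.27 to 0.15.

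The nucleic acid sensors recognise foreign RNA or Z-form nucleic acid. Ddx58, which encodes RIG-I, was at 5.64, 3.48, 4.00, 5.21 and 3.49 FPKM with QpE and 6.95, 6.28, 6.64, 8.36 and 5.61 FPKM in controls at 12 days, a difference of -0.54 (SE 0.16, adjusted p = 0.0796). Only QpE replicate 1, at 5.64 FPKM, reached into the control range. Dhx58, which encodes LGP2, was at 0.377, 0.367, 2.04, 0.906 and 0.033 FPKM with QpE and 1.26, 0.767, 2.04, 2.68 and 0.918 FPKM in controls, a difference of -0.58 (SE 0.31, adjusted p = 0.328). Ifih1, which encodes MDA5, and Zbp1 did not pass the filter, and their values at 12 days were 0.015 to 0.650 and 0 to 0.278 FPKM with QpE, and 0.278 to 0.675 and 0.091 to 1.37 FPKM in controls.

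The transcription factors showed no call with QpE at 12 days, and their median difference was -0.14. Irf1, induced by interferon and a regulator of class I genes, was at 13.8, 17.2, 18.5, 17.6 and 16.6 FPKM with QpE and 14.9, 15.8, 20.2, 22.8 and 20.4 FPKM in controls, a difference of -0.15 (SE 0.13, adjusted p = 0.566). Stat2, a transcription factor of the response to type I interferon, was at 6.88, 5.84, 7.88, 10.4 and 8.42 FPKM with QpE and 5.21, 9.40, 10.9, 13.2 and 7.25 FPKM in controls, a difference of -0.16 (SE 0.23, adjusted p = 0.739). Irf9, the DNA-binding partner of STAT2, was at 0.847, 1.05, 0.804, 2.32 and 0.950 FPKM with QpE and 1.200, 1.19, 0.836, 2.10 and 0.574 FPKM in controls, a difference of 0.01 (SE 0.23, adjusted p = 0.991). In Irf1, Stat2 and Irf9 the groups overlapped, and the highest Irf9 value of QpE cultures was that of replicate 4. The locus of Irf9 also holds Rnf31, so the split of its fragments between the genes is uncertain. Irf7, which amplifies the type I interferon response, differed by -0.14 (SE 0.23, adjusted p = 0.788).

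ISG15 is a ubiquitin-like protein that is joined to other proteins and removed again by USP18. Isg15 was at 2.81, 2.63, 6.76, 3.05 and 1.03 FPKM with QpE and 4.03, 2.79, 6.98, 16.4 and 3.76 FPKM in controls at 12 days, a difference of -0.77 (SE 0.46, adjusted p = 0.375). The highest value was control replicate 4, and the groups overlapped. Trim25, a ubiquitin ligase that acts on RIG-I, was at 9.99, 10.4, 8.85, 9.04 and 8.85 FPKM with QpE and 9.90, 10.1, 10.7, 12.1 and 9.35 FPKM in controls, a difference of -0.13 (SE 0.10, adjusted p = 0.499). Usp18 differed by -0.06 (SE 0.24, adjusted p = 0.92), Parp14, an ADP-ribosyltransferase, by -0.26 (SE 0.15, adjusted p = 0.356) and Dtx3l, a ubiquitin ligase that works with PARP9, by -0.21 (SE 0.18, adjusted p = 0.542). Parp9 was at 4.76, 4.28, 4.70, 2.78 and 5.63 FPKM with QpE and 3.77, 3.58, 0, 1.72 and 3.74 FPKM in controls, a difference of 0.79 (SE 0.42, adjusted p = 0.324). The value of control replicate 3 is listed at 0, and Parp9 also had values of 0.137 FPKM or less in 4 other libraries, so its levels are uncertain.

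No gene of class I presentation passed the test with QpE at 12 days, and the 4 tested had a median difference of -0.03. B2m was at 379, 341, 521, 551 and 365 FPKM with QpE and 386, 406, 442, 494 and 446 FPKM in controls, a difference of -0.03 (SE 0.16, 95% interval -0.39 to 0.32, adjusted p = 0.929). H2-D1 was at 111, 135, 116, 104 and 151 FPKM with QpE and 118, 113, 121, 124 and 149 FPKM in controls, a difference of -0.03 (SE 0.12, 95% interval -0.30 to 0.25, adjusted p = 0.93). In neither gene did the QpE cultures stand apart from the controls. H2-K1 was at 104, 126, 46.4, 40.7 and 137 FPKM with QpE and 78.7, 91.7, 41.2, 44.7 and 122 FPKM in controls, a difference of 0.21 (SE 0.43, adjusted p = 0.822), and here replicates 3 and 4 were lowest in both groups. Tap1, a subunit of the peptide transporter, was at 2.46, 1.82, 6.70, 5.47 and 1.01 FPKM with QpE and 4.93, 3.87, 6.81, 9.17 and 5.84 FPKM in controls, a difference of -0.80 (SE 0.38, adjusted p = 0.257). The groups overlapped, with replicates 3 and 4 highest in both. H2-K1 and H2-D1 are near-identical in stretches, and Tap1 shares an assembled locus with Tap2, so their levels depend on how the authors assigned shared fragments. Unnamed assembled transcripts in the loci of H2-D1, H2-K1, Tap1, Irf9, Ifit2, Ifit3 and Parp9 are not part of the levels given.

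The number of members called at 12 days depended on the fit. With all 30 libraries in the fit, Ddx58, Mx1, Xaf1, Rtp4, Oasl2, Ifi44 and Ifitm3 were called lower, 7 of 28 against 8.86% of all rows. That fit shares a single spread over the 6 groups, although QpE cultures at 12 days were the most variable. With unnamed transcripts joined to the only named gene of their locus, Ddx58, Xaf1 and Ifitm3 were called lower, 3 of 28 against 7.16% of all rows.

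**Figure D3:**
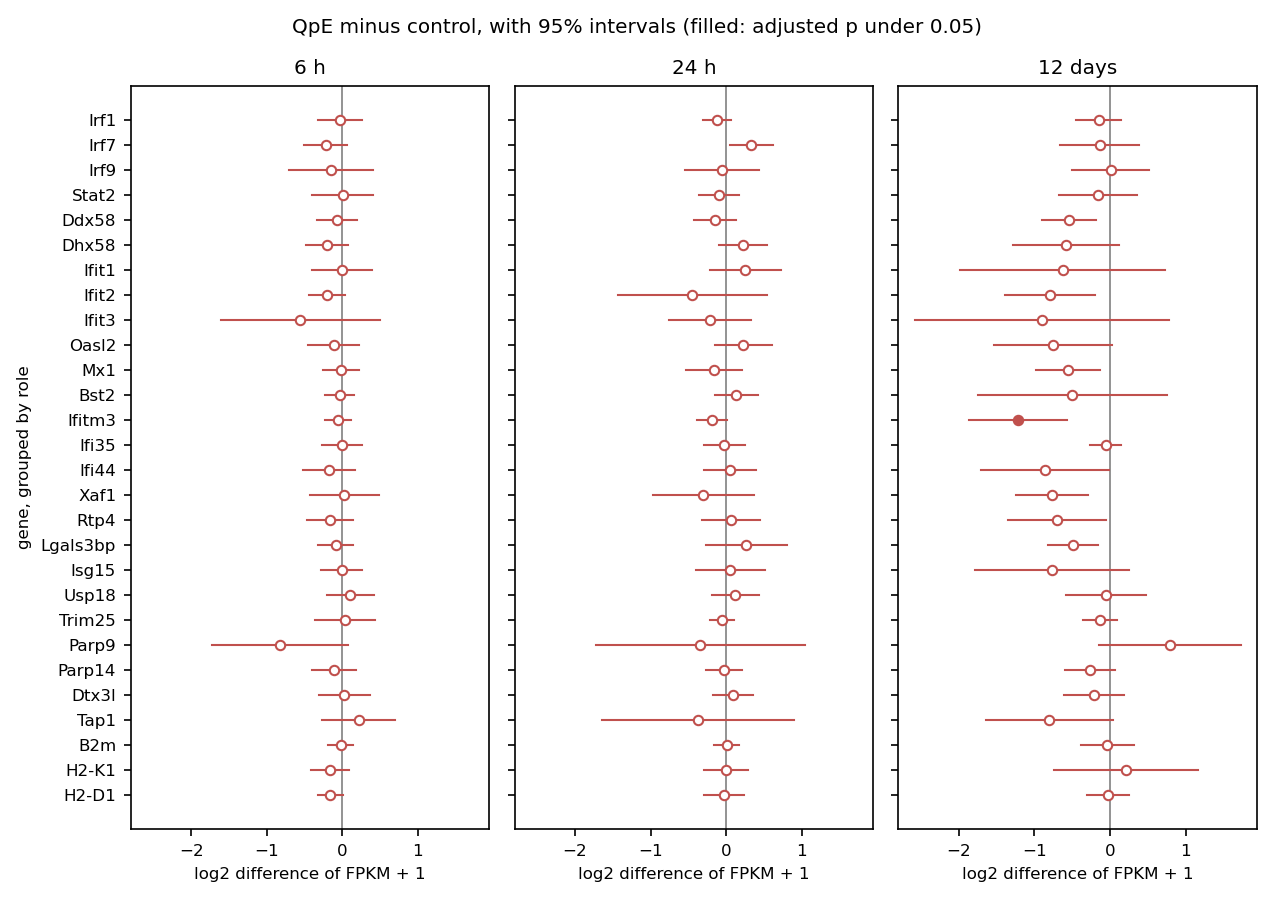
Log2 difference of FPKM + 1, QpE minus control, at 6 h, 24 h and 12 days for the 28 tested genes (rows), with 95% intervals. A filled point marks an adjusted p under 0.05 and stands only at Ifitm3 at 12 days, -1.22, while most points at 6 h and 24 h lie near 0.

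At 24 h and 6 h, no member was called with QpE. At 24 h, 0.0111% of all rows were called higher and 0.00554% lower by limma, and of the 28 members 0 were called in each direction, with 1 higher and 0 lower at an unadjusted p under 0.05. At 6 h, 0.00554% of all rows were called higher and 0% lower, and of the 28 members 0 were called in each direction, with 0 at an unadjusted p under 0.05. Of all 18035 rows, 1291 at 24 h and 596 at 6 h passed that unadjusted threshold in either direction. The median difference of the members was -0.02 at 24 h, against 0.01 over all rows, and -0.06 at 6 h, against -0.01.

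Ifitm3 with QpE was at 382, 424, 398, 386 and 395 FPKM at 24 h, against 425, 414, 469.9, 553 and 413 FPKM in controls, a difference of -0.19 (SE 0.09, 95% interval -0.39 to 0.01, adjusted p = 0.713). At 6 h it was at 289, 288, 252, 329 and 271 FPKM with QpE, against 304, 309, 305, 287 and 272 FPKM in controls, a difference of -0.05 (SE 0.08, 95% interval -0.22 to 0.12, adjusted p = 1). At both times the QpE and control values overlapped. Irf7 had the largest positive difference at 24 h, 0.33 (SE 0.13, adjusted p = 0.655), at levels under 1.1 FPKM. The QpE difference of Ifitm3 at 12 days minus that at 24 h was -1.03 (SE 0.32, adjusted p = 0.155), which missed the test. Of all rows, 0.0111% had a QpE difference called higher at 12 days than at 24 h and 0.0166% lower, and of the 28 members 0 were called in each direction by limma, with 0 higher and 6 lower at an unadjusted p under 0.05. That unadjusted threshold was passed by 2374 of all 18035 rows, in either direction.

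From 6 h to 24 h, a larger share of the members than of all rows was called higher in each arm, and the others were not called. With QpE, 10 of 28 members were called higher at 24 h than at 6 h and 0 lower (1 lower at an unadjusted p under 0.05), against 6.58% higher and 6.25% lower of all rows. In controls 9 of 28 were called higher and 0 lower (0 lower at an unadjusted p under 0.05), against 5.62% higher and 6.79% lower. The median difference was 0.39 with QpE and 0.35 in controls, against 0.03 and 0.01 over all rows. With all 30 libraries in the fit, 4 members were called higher with QpE and 4 in controls, where 1094 and 710 of all 18035 rows were. With a replicate block the count in controls was 3, where 571 of all rows were called higher. With unnamed transcripts joined, 15 members were called higher with QpE and 12 in controls, where 1830 and 1529 of 14616 rows were. Fat cell markers moved in the same comparison, 9 of 12 higher with QpE and 1 of 12 in controls, and their part in the result was not tested.

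Irf1 with QpE was at 20.6, 24.2, 23.5, 23.3 and 26.7 FPKM at 24 h and 18.979, 16.7, 12.2, 14.9 and 17.1 FPKM at 6 h, a rise of 0.55 (SE 0.11, 95% interval 0.29 to 0.80, adjusted p = 0.0128). In controls it was at 23.6, 26.4, 24.5, 24.6 and 29.9 FPKM at 24 h and 18.8, 17.2, 15.1, 13.0 and 17.7 FPKM at 6 h, a rise of 0.64 (SE 0.10, 95% interval 0.40 to 0.87, adjusted p = 0.00483). All cultures at 24 h were above all cultures at 6 h in both arms. Ifitm3 rose too, by 0.48 (SE 0.08, adjusted p = 0.00432) with QpE and by 0.61 (SE 0.09, adjusted p = 0.00257) in controls, and again the times did not overlap.

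Among the IFIT genes, Ifit1 was at 4.86, 5.54, 4.72, 5.53 and 4.04 FPKM at 24 h and 1.38, 1.91, 1.54, 2.68 and 2.10 FPKM at 6 h with QpE, a rise of 1.03 (SE 0.14, adjusted p = 0.00197). In controls it was at 3.27, 3.36, 3.78, 7.69 and 2.92 FPKM at 24 h and 1.21, 1.46, 2.55, 2.12 and 2.36 FPKM at 6 h, a difference of 0.78 (SE 0.24, adjusted p = 0.0615) that missed the test. The times did not overlap in either arm. Ifit3 was at 2.35, 4.82, 4.26, 7.62 and 3.21 FPKM at 24 h and 0, 0, 1.65, 0 and 2.46 FPKM at 6 h with QpE, a rise of 1.73 (SE 0.42, adjusted p = 0.0257). In controls it was at 4.89, 5.50, 3.92, 6.75 and 4.37 FPKM at 24 h and 1.65, 0, 2.75, 1.23 and 1.84 FPKM at 6 h, a rise of 1.39 (SE 0.32, adjusted p = 0.0212). Ifit3 was the member with the largest rise in each arm, with 3 QpE cultures and 1 control culture listed at 0 at 6 h.

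Ifi44 rose by 0.84 (SE 0.15, adjusted p = 0.00636) with QpE and by 0.61 (SE 0.16, adjusted p = 0.0368) in controls. H2-K1 was at 81.7, 87.1, 68.1, 50.3 and 75.0 FPKM at 24 h and 56.3, 47.3, 35.9, 44.2 and 53.8 FPKM at 6 h with QpE, a rise of 0.59 (SE 0.16, adjusted p = 0.0428), and rose by 0.43 (SE 0.06, adjusted p = 0.00198) in controls. The controls did not overlap between times, while QpE replicate 4 at 24 h lay within the range at 6 h. The other calls with QpE were Dhx58, 0.60 (SE 0.12, adjusted p = 0.0088), Oasl2, 0.69 (SE 0.16, adjusted p = 0.0217), Rtp4, 0.61 (SE 0.13, adjusted p = 0.0134), and Bst2, 0.42 (SE 0.11, adjusted p = 0.0335). The other calls in controls were Ddx58, 0.48 (SE 0.12, adjusted p = 0.028), Ifit2, 0.52 (SE 0.14, adjusted p = 0.0398), Mx1, 0.55 (SE 0.14, adjusted p = 0.0364), and B2m, 0.23 (SE 0.07, adjusted p = 0.0452). Many of these calls were lost when a culture was left out: of 10 such fits each, 2 kept the call of Ifit2, 2 that of Mx1, 3 that of Ifi44 and 1 that of B2m in controls, and 4 kept that of Ifit3, 3 that of Bst2 and 2 that of H2-K1 with QpE. The call of B2m was kept in 2 of 9 fits with another setting, and that of Mx1, which reached 1 FPKM in no library at 6 h, had an adjusted p of 0.104 with no filter on low values. In controls the call of Ddx58 was kept in 5 of 10 fits without a culture, and its difference was -0.21 with the most abundant transcript only. The control call of H2-K1 was kept in 7 of 9 fits with another setting. A call in a single arm does not show that the arms differ, which was not tested for this step.

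Bst2 rose in QpE cultures to 27.7, 32.6, 28.2, 22.7 and 22.3 FPKM at 24 h, against 17.5, 19.7, 20.6, 21.7 and 18.4 FPKM at 6 h, and every culture at 24 h was above every culture at 6 h. In controls it was at 20.4, 21.7, 25.4, 29.4 and 24.1 FPKM at 24 h and 18.1, 18.4, 22.1, 22.8 and 19.3 FPKM at 6 h, with overlapping times and a difference of 0.25 (SE 0.11, adjusted p = 0.173). Isg15 was at 4.81, 10.3, 5.82, 5.48 and 5.85 FPKM at 24 h and 3.47, 4.68, 3.62, 4.13 and 4.59 FPKM at 6 h with QpE, a difference of 0.51 (SE 0.18, adjusted p = 0.0946) that missed the test. Trim25 went the other way in both arms without a call, by -0.40 (SE 0.12, adjusted p = 0.0606) with QpE and -0.31 (SE 0.15, adjusted p = 0.233) in controls.

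**Figure D4:**
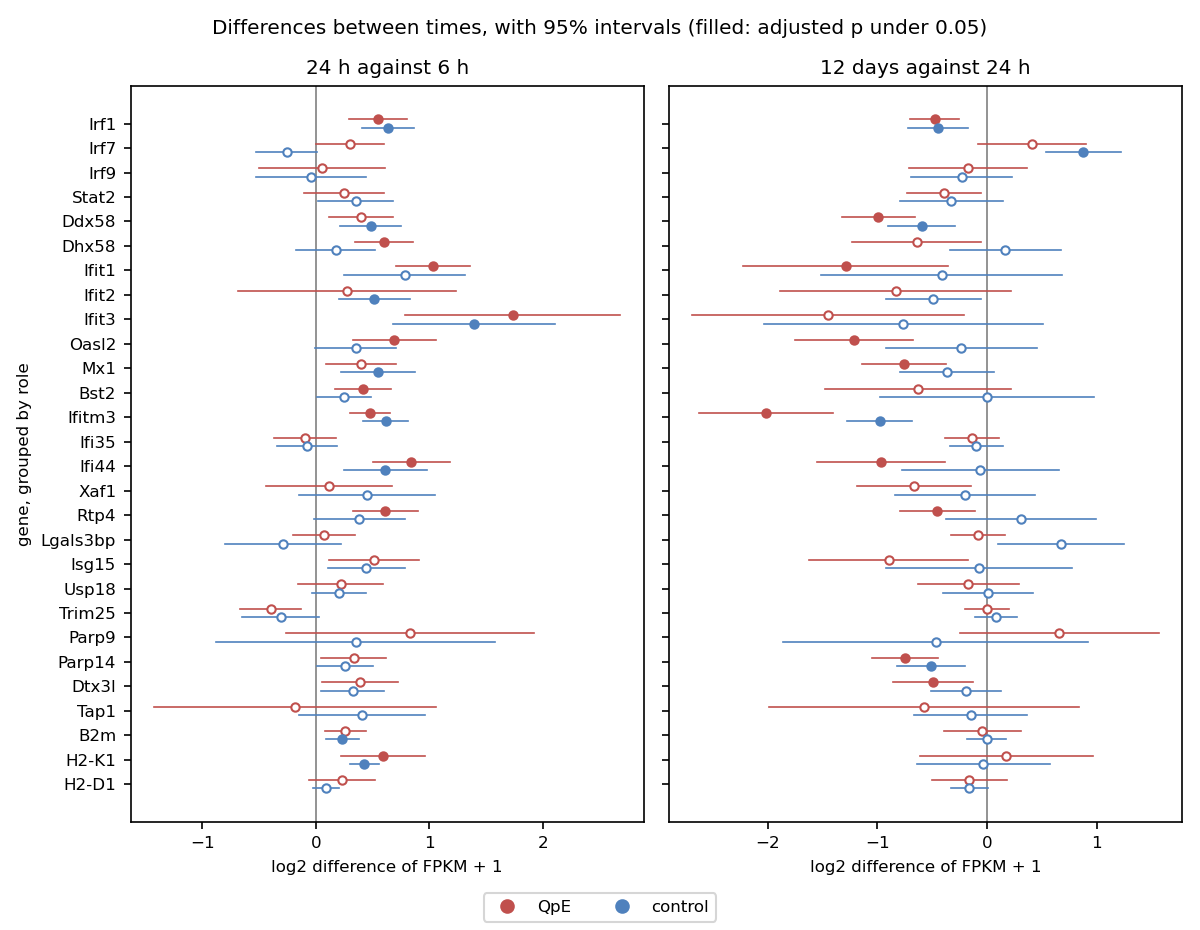
Log2 difference of FPKM + 1 between 24 h and 6 h (left) and between 12 days and 24 h (right) for the 28 tested genes, with 95% intervals, in QpE cultures and in controls. Most points lie right of 0 in the left panel, with Ifit3 farthest, and left of 0 in the right panel, where Ifitm3 with QpE is farthest at -2.01.

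From 24 h to 12 days, more members were called lower than higher in each arm. With QpE, 0 of 28 members were called higher (0 at an unadjusted p under 0.05) and 10 lower, against 11.8% higher and 17.5% lower of all rows. In controls 1 was called higher and 4 lower, against 8.11% higher and 12.3% lower of all rows, so the 4 of 28, or 14.3%, in controls is near the background. The median difference was -0.53 with QpE and -0.18 in controls, against -0.11 and -0.08 over all rows. The step coincides with the rise of the fat cell markers, 11 of 12 called higher in each arm, and with the fibroblast markers, of which 9 of 10 were called lower with QpE and 4 of 10 in controls, and their part in the result was not tested.

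Ifitm3 was lower at 12 days than at 24 h, with a difference of -2.01 (SE 0.27, 95% interval -2.62 to -1.40, adjusted p = 0.000581) with QpE and of -0.98 (SE 0.13, 95% interval -1.28 to -0.68, adjusted p = 0.000893) in controls. Ddx58 fell in both arms, to 5.64, 3.48, 4.00, 5.21 and 3.49 FPKM with QpE at 12 days, against 8.29, 10.7, 8.54, 10.0 and 10.3 FPKM at 24 h, a difference of -0.99 (SE 0.15, adjusted p = 0.001), and the difference in controls was -0.60 (SE 0.14, adjusted p = 0.0122). The falls of Irf1 were -0.48 (SE 0.10, adjusted p = 0.00581) with QpE and -0.45 (SE 0.12, adjusted p = 0.0265) in controls. Parp14 fell too, with differences of -0.75 (SE 0.14, adjusted p = 0.00267) with QpE and -0.51 (SE 0.14, adjusted p = 0.0283) in controls. For these 4 genes the times did not overlap in either arm. In controls, of 10 fits that leave out a culture, 4 kept the call of Parp14 and 6 that of Irf1. The control call of Parp14 was kept in 6 of 11 fits with another setting. Parp14 was of low level, with control means of 1.46 FPKM at 24 h and 0.742 FPKM at 12 days.

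The other 6 members called lower with QpE were of low level at 12 days. Oasl2 was at 0.234, 0.060, 1.26, 0.810 and 0.151 FPKM at 12 days and 2.65, 3.39, 1.77, 2.11 and 2.00 FPKM at 24 h, a difference of -1.21 (SE 0.24, adjusted p = 0.00417). Mx1 was at 0.098, 0.165, 0.464, 0.461 and 0 FPKM at 12 days and 1.38, 1.10, 0.816, 0.666 and 1.51 FPKM at 24 h, a difference of -0.76 (SE 0.17, adjusted p = 0.00855). For both genes every culture at 12 days was below the lowest value at 24 h. Ifi44 fell by 0.97 (SE 0.26, adjusted p = 0.0191), and the differences of Ifit1, Dtx3l and Rtp4 were -1.29 (SE 0.42, adjusted p = 0.0414), -0.49 (SE 0.16, adjusted p = 0.0468) and -0.45 (SE 0.15, adjusted p = 0.0492). Of 10 fits that leave out a culture, 2 kept the call of Ifit1, 2 that of Dtx3l and 1 that of Rtp4, and with another setting these calls were kept in 4 of 11, 3 of 11 and 2 of 10 fits. Mx1 passed the filter mainly through the 24 h groups, so its call is a description. Among the last 3 genes, Ifit1 overlapped between times, because QpE replicate 3 at 12 days reached 4.26 FPKM. In controls the differences of Oasl2, Mx1, Ifi44 and Ifit1 were -0.23 (SE 0.31, adjusted p = 0.654), -0.36 (SE 0.19, adjusted p = 0.223), -0.06 (SE 0.32, adjusted p = 0.922) and -0.41 (SE 0.49, adjusted p = 0.611), none past the test.

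Irf7 was the member called higher at 12 days in controls, and since it passed the filter through the 12 day groups, the call is a description. It was at 1.18, 1.00, 1.55, 2.33 and 1.53 FPKM at 12 days and 0.363, 0.301, 0.503, 0.227 and 0.366 FPKM at 24 h in controls, without overlap, a rise of 0.88 (SE 0.15, 95% interval 0.54 to 1.22, adjusted p = 0.00312). With QpE it was at 2.13, 0.928, 1.15, 0.508 and 1.99 FPKM at 12 days and 0.603, 0.603, 0.940, 0.415 and 1.01 FPKM at 24 h, with overlap and a difference of 0.41 (SE 0.22, adjusted p = 0.202). Its top transcript held 16.1% of its level over 13 transcripts, and the most abundant transcript alone did not pass the filter. B2m, H2-D1 and H2-K1 showed no call in this step, with differences of -0.04, -0.16 and 0.18 with QpE and -0.00, -0.16 and -0.03 in controls.

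Within the 12 day groups, the replicate number separated the cultures for many members. Replicates 3 and 4 held the 2 highest values in both the QpE and the control group for 12 of the 28 members, or 42.9%, against 11.3% of all rows tested. They were Dhx58, Ifit1, Ifit2, Ifit3, Oasl2, Mx1, Bst2, Ifitm3, Ifi44, Isg15, Parp14 and Tap1. H2-K1 was the member for which these replicates held the 2 lowest values in both groups, 1 of 28, or 3.57%, against 9.13% of all rows. At 24 h they held the 2 highest values in both groups for 1 member, Ifi44, against 4.87% of all rows, and the 2 lowest for 0 members, against 3.73%. At 6 h they held the 2 highest for 1 member, Bst2, against 4.93% of all rows, and the 2 lowest for 5 members, Irf1, Ddx58, B2m, H2-K1 and H2-D1, against 6.48%. These counts are a description, since the pattern was known before they were made and the members are not independent. For Bst2, Ifit1, Isg15, Ifi44, Oasl2 and Tap1, each 12 day QpE value was below the control value of the same number. For Parp9 each was above, and for H2-K1 the direction varied. The numbers were not taken as pairs, and with a replicate block 0 members were called with QpE at 12 days.

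The same 12 day cultures differed in their fat cell markers. The summed level of the fat cell list was 4733 and 3614 FPKM in QpE replicates 3 and 4, against 8329 to 10298 FPKM in the other QpE cultures. It was 1345 and 1927 FPKM in control replicates 3 and 4 and 5407 to 6641 FPKM in the other controls. The labels give no batch for these cultures, and the part of this difference in the levels of the members was not tested. With replicates 1, 2 and 5 only, 0 members were called with QpE at 12 days, and of all 18035 rows 47 were called higher and 26 lower. With replicates 3 and 4 only, 0 of all rows were called, so that fit says nothing of the members. Within replicates 1, 2 and 5 the difference of Ifitm3 was -1.33, and within replicates 3 and 4 it was -1.06.

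The lists of the wider pathway with calls for QpE at 12 days had 1 or 2 each, where 2.13% of all rows were called higher and 2.73% lower. Of 9 tested receptor and JAK-STAT genes, Ifnar1, a receptor chain for type I interferon, was called lower at 23.004 ± 1.26 FPKM with QpE and 29.3 ± 1.63 FPKM in controls (SD, n = 5 each), -0.34 (SE 0.07, adjusted p = 0.0356) by limma. The others named for this list were not called: Ifnar2 differed by -0.07 (SE 0.12, adjusted p = 0.793), Ifngr1 by 0.86 (SE 0.37, adjusted p = 0.212), Ifngr2 by -0.44 (SE 0.13, adjusted p = 0.0813), Jak1 by 0.07 (SE 0.11, adjusted p = 0.778) and Tyk2 by -0.05 (SE 0.37, adjusted p = 0.96). Of 14 sensing and adaptor genes, Tmem173, which encodes STING, was called lower, -1.24 (SE 0.23, adjusted p = 0.0277). Of 9 negative regulators, Socs1, an inhibitor of JAK kinases, was called lower, -1.79 (SE 0.43, adjusted p = 0.0443), at 0 to 3.45 FPKM with QpE and 4.30 to 7.78 FPKM in controls.

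Of 42 other interferon-stimulated genes tested from a list of 59, Iigp1, an immunity-related GTPase, was called lower, -1.10 (SE 0.19, adjusted p = 0.023), and Cd274, which encodes the checkpoint ligand PD-L1, was called higher, 0.84 (SE 0.19, adjusted p = 0.0414). The median of this list was -0.37, against -0.01 over all rows. Of 17 tested genes of class I processing, Psmb8, an immunoproteasome subunit, was called lower, -0.79 (SE 0.17, adjusted p = 0.034).

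From 6 h to 24 h, 14 of the 42 other interferon-stimulated genes were called higher and 1 lower with QpE, against 6.58% higher and 6.25% lower of all rows. In controls 10 were called higher and 2 lower, against 5.62% higher and 6.79% lower of all rows. With QpE the largest rises among the calls were those of Gbp6, a guanylate-binding protein, 1.68 (SE 0.34, adjusted p = 0.0118), and Parp10, an ADP-ribosyltransferase, 1.21 (SE 0.33, adjusted p = 0.0378), and Samhd1, a dNTP hydrolase, fell, -0.53 (SE 0.10, adjusted p = 0.0102). In controls the largest among the calls were those of Mov10, an RNA helicase, 0.93 (SE 0.24, adjusted p = 0.035), and Irgm2, an immunity-related GTPase, 0.69 (SE 0.14, adjusted p = 0.0138), while Ifi204, a DNA-binding protein, -1.06 (SE 0.28, adjusted p = 0.0367), and Samhd1, -0.75 (SE 0.08, adjusted p = 0.000955), fell. Mov10 and Irgm2 passed the filter mainly through the groups after 6 h, so their calls are descriptions. At 12 days against 24 h, 4 were called higher and 15 lower with QpE, against 11.8% higher and 17.5% lower of all rows, and 2 were called higher and 10 lower in controls, against 8.11% higher and 12.3% lower. Slfn9, of the Schlafen family, had the largest fall in both arms, with differences of -2.24 (SE 0.51, adjusted p = 0.00836) with QpE and -2.09 (SE 0.22, adjusted p = 0.000245) in controls. Next among the calls were Lgals9, a galectin, -1.47 (SE 0.33, adjusted p = 0.00777), with QpE and Trim30a, a tripartite motif protein, -0.74 (SE 0.16, adjusted p = 0.0103), in controls. Isg20, an exonuclease, rose in both arms, by 1.22 (SE 0.17, adjusted p = 0.000692) with QpE and 0.76 (SE 0.21, adjusted p = 0.0282) in controls, and so did Cd274 with QpE, 1.18 (SE 0.19, adjusted p = 0.00159), and Ifi27 in controls, 0.60 (SE 0.14, adjusted p = 0.0157). Since Isg20 passed the filter mainly through the 12 day groups, its calls are a description.

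Receptor and sensing genes had calls in both directions. From 24 h to 12 days with QpE 1 of 9 receptor and JAK-STAT genes was called higher and 2 lower, and 1 of 14 sensing genes was called higher and 5 lower, against the same 11.8% and 17.5% of all rows. In this step Ifngr1 rose, 1.27 (SE 0.34, adjusted p = 0.0177), while Ifngr2, -0.51 (SE 0.12, adjusted p = 0.00976), and Ifnar1, -0.46 (SE 0.12, adjusted p = 0.018), fell. Tmem173 fell by 1.62 (SE 0.22, adjusted p = 0.000587) with QpE and differed by -0.50 (SE 0.11, adjusted p = 0.0104) in controls, also a fall. Mavs, the adaptor of RIG-I, rose by 0.62 (SE 0.09, adjusted p = 0.000871) with QpE and 0.31 (SE 0.08, adjusted p = 0.0224) in controls. Ikbke, a kinase of the sensing pathway, fell too, with differences of -1.26 (SE 0.22, adjusted p = 0.00223) with QpE and -0.54 (SE 0.15, adjusted p = 0.0285) in controls. In controls Mb21d1, which encodes the DNA sensor cGAS, fell by 0.64 (SE 0.16, adjusted p = 0.0186), Jak2 fell by 0.54 (SE 0.08, adjusted p = 0.00189) and Tlr4, the endotoxin receptor, rose by 0.64 (SE 0.10, adjusted p = 0.00212). From 6 h to 24 h the kinases Jak1 and Jak2 fell, with differences of -0.44 (SE 0.08, adjusted p = 0.00519) and -0.45 (SE 0.13, adjusted p = 0.0444) with QpE and -0.42 (SE 0.06, adjusted p = 0.00343) and -0.39 (SE 0.10, adjusted p = 0.0375) in controls. Il10rb, a receptor chain shared by interferon lambda, rose by 0.49 (SE 0.12, adjusted p = 0.0274) with QpE, and Eif2ak2, the RNA-dependent kinase PKR, by 0.29 (SE 0.08, adjusted p = 0.0361). Myd88, a Toll-like receptor adaptor, fell, with differences of -0.27 (SE 0.07, adjusted p = 0.04) with QpE and -0.32 (SE 0.07, adjusted p = 0.0159) in controls. Socs3, an inhibitor of JAK signalling, fell in each arm at each step, with differences of -0.60 (SE 0.10, adjusted p = 0.00428) at 24 h and -1.52 (SE 0.34, adjusted p = 0.00807) at 12 days with QpE and of -0.36 (SE 0.09, adjusted p = 0.0352) and -0.61 (SE 0.14, adjusted p = 0.0139) in controls.

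Among genes of class I processing, Psmb8, -1.30 (SE 0.17, adjusted p = 0.000472), and Tapbp, or tapasin, -1.21 (SE 0.37, adjusted p = 0.033), had the largest falls among the calls from 24 h to 12 days with QpE, and Psme2, a proteasome activator subunit, 0.82 (SE 0.20, adjusted p = 0.0112), and Nlrc5, a transactivator of class I genes, 0.49 (SE 0.16, adjusted p = 0.0433), rose. Nlrc5 was near the filter, at 0.489 to 0.839 FPKM at 24 h and 0.966 to 2.04 FPKM at 12 days with QpE, so its call is a description. In controls Pdia3, of the peptide-loading complex, fell, -0.36 (SE 0.05, adjusted p = 0.0015). From 6 h to 24 h Tap2 rose with QpE, 0.30 (SE 0.07, adjusted p = 0.0249), and Psme1, 0.32 (SE 0.08, adjusted p = 0.0247), and Canx, or calnexin, 0.26 (SE 0.04, adjusted p = 0.00581), rose in controls. Of 2 tested genes of class II presentation, Cd74, the invariant chain, rose in controls from 24 h to 12 days, 0.80 (SE 0.16, adjusted p = 0.00658). Since Cd74 reached 1 FPKM only in the 12 day groups, this call is a description.

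The cell type lists moved in the same libraries. Among fat cell markers the largest rises from 24 h to 12 days were those of Cfd, or adipsin, and Gpd1, a glycerol metabolism enzyme, 5.39 (SE 0.75, adjusted p = 0.000646) and 4.97 (SE 1.02, adjusted p = 0.00497) with QpE and 4.82 (SE 0.97, adjusted p = 0.00663) and 4.76 (SE 1.27, adjusted p = 0.0255) in controls. From 6 h to 24 h they were also Gpd1, 3.24 (SE 0.67, adjusted p = 0.0123), and Cfd, 2.46 (SE 0.42, adjusted p = 0.0048), with QpE, and in controls Pparg, the master regulator of fat cell formation, 0.64 (SE 0.15, adjusted p = 0.0249), was the call. With QpE at 12 days the lowest of the called fibroblast markers against controls were Lum, -2.47 (SE 0.59, adjusted p = 0.0442), and Col1a1, -1.87 (SE 0.41, adjusted p = 0.0356), which encode matrix proteins, while Dcn, at -2.43, was not called. From 24 h to 12 days Dcn, -2.33 (SE 0.66, adjusted p = 0.0236), and Lum, -2.21 (SE 0.59, adjusted p = 0.0184), fell with QpE, and Ly6a, -1.45 (SE 0.39, adjusted p = 0.0265), and Dlk1, a preadipocyte marker, -0.61 (SE 0.11, adjusted p = 0.00308), fell in controls. From 6 h to 24 h Ly6a and Thy1, surface markers of mesenchymal cells, fell, with differences of -0.65 (SE 0.13, adjusted p = 0.0113) and -0.48 (SE 0.06, adjusted p = 0.00116) with QpE and -0.83 (SE 0.15, adjusted p = 0.00659) and -0.27 (SE 0.05, adjusted p = 0.0121) in controls. Cd68, a lysosomal protein, rose from 24 h to 12 days, 1.57 (SE 0.24, adjusted p = 0.00104) with QpE and 1.00 (SE 0.25, adjusted p = 0.0187) in controls. It passed the filter mainly through the 12 day groups, so the calls of Cd68 are a description.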

How the data were processed

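The authors deposited FPKM per transcript in a single table. In 10 libraries 11 deposited values lie just below 0, so these columns are recorded as a score and were set to 0 where negative. Per the submitters' processing notes, HISAT, HISAT2 and StringTie were used with GRCm38, without versions. For settings and strand handling, the sources used here give nothing. Count models were not applied to FPKM.

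Transcripts were summed per gene name. Unnamed transcripts stayed separate rows. Rows with at least 1 FPKM in at least 5 of 30 libraries (18035) were tested as log2(FPKM + 1), a scale that understates changes of low genes, with limma 3.58.1 in R 4.3.3 (mean-variance trend, only the groups compared, no covariates), Benjamini-Hochberg adjustment over all rows and a threshold of 0.05. Intervals are 95% and unadjusted. The fits were tested on simulated data. Depth was estimated from the steps of low FPKM values and is approximate; no interval was drawn from it. No 2 libraries of a group were identical (highest r 0.9229).

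Members and lists were chosen with earlier results of these data known. Every member is accounted for, values in every library are given for members called with QpE at 12 days and the 3 of highest level in each role, and in each list the 2 largest rises and falls among calls are named, except items that are not reported here. Values per library of other genes were added after they were seen. Alternatives were other pseudocount, filter, scaling, transcript and library choices, a replicate block and leaving out each culture. Cultures given dexamethasone, which the protocol mentions, were not analysed here.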

Additional observations from a re-analysis of the deposited data

Results flagged for a closer look

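In 168 groups of 5 cultures (28 genes in 6 groups), 11 values stood apart from the other 4 by a gap over 0.71 of the group's range; chance flags about 1 in 20 groups. High values were Irf9 at 2.32 FPKM in QpE replicate 4 at 12 days (others 0.804 to 1.05), Dhx58 at 1.98 FPKM in QpE replicate 5 at 24 h (others 1.36 to 1.54), and Lgals3bp at 51.4 FPKM (others 34.9 to 38.2) and Isg15 at 10.3 FPKM (others 4.81 to 5.85) in QpE replicate 2 at 24 h. In controls they were Ifit1 at 7.69 FPKM (others 2.92 to 3.78) and B2m at 471 FPKM (others 420.2 to 433) in replicate 4 at 24 h, Ifi35 at 14.5 FPKM in replicate 5 at 24 h (others 9.94 to 10.7), Rtp4 at 4.12 FPKM in replicate 4 at 12 days (others 0.77 to 1.29) and Isg15 at 5.27 FPKM in replicate 3 at 6 h (others 3.72 to 3.98). Low values were Tap1 at 0.129 FPKM in QpE replicate 4 at 24 h (others 7.13 to 8.92) and Parp9 at 0 in control replicate 3 at 24 h (others 4.43 to 5.72).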

How the results depend on the processing

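With QpE at 12 days the count of members called lower was 1, and it was 0 with a pseudocount of 0.1, with a replicate block, with the most abundant transcript only, with no filter on low values, with replicates 1, 2 and 5 only and with replicates 3 and 4 only, 2 with TPM scaling, 7 with all 30 libraries and 3 with unnamed transcripts joined; leaving out a culture gave 0 to 1. For 12 days against 24 h with QpE, 1 member was called higher with replicates 1, 2 and 5 only. With replicates 3 and 4 only, 1 was called lower, against 10, while the rows called lower among all tested fell from 3158 to 490. The count lower was 14 with all 30 libraries, 14 with replicates 1, 2 and 5 only and 15 with unnamed transcripts joined. Leaving out a culture gave 7 to 12 lower. In controls, 2 members were called higher with all 30 libraries, 0 with the most abundant transcript only and 0 with replicates 3 and 4 only, against 1; the count lower was 2 with the most abundant transcript only, 2 with no filter and 1 with replicates 3 and 4 only, against 4, and 2 to 4 when a culture was left out. For 24 h against 6 h in controls, 4 were called higher with all 30 libraries, 3 with a replicate block and 3 with the most abundant transcript only, against 9, and 4 to 7 when a culture was left out. With QpE it was 4 with all 30 libraries and 6 with no filter, against 10, and 7 to 10 when a culture was left out, and 1 member was called lower with TPM scaling, with all 30 libraries and with unnamed transcripts joined, and 0 to 1 when a culture was left out. The change of the QpE effect had 1 member lower with all 30 libraries and 0 to 1 when a culture was left out. The number of rows called among all tested moved with the fit too. In controls with replicates 3 and 4 only, 305 rows were called lower at 12 days than at 24 h, against 2227. The cause of these moves was not tested.

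Over the 35 member calls in the 8 comparisons, 252 of 344 refits with another setting kept the call, 91 lost it and 1 reversed: Ddx58 at 24 h against 6 h in controls was -0.21 with the most abundant transcript only. Of 350 fits without a culture, 243 kept the call, and 19 calls were kept in all of theirs. The replicate numbers were not taken as pairs. At 12 days the correlation of same-numbered QpE and control cultures was 0.109, 0.084, 0.181, 0.209 and 0.106, not all above 0.1, and not every culture correlated best with its own number. Low FPKM and spread between cultures at 12 days limit what can be detected for genes near 1 FPKM.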
